A study of Mus musculus with 15 samples.

Results

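Ccl27a is a gene of the chemokine family, and its RNA was measured here in mouse brain with 1 probe of a spotted array. It was found as the probe whose only gene symbol in the platform's annotation, after aliases were updated, is Ccl27a. That gave 1 probe of 20205, for 1 of 9648 named genes, and it had a value on all 15 arrays. The gene was selected on its own values, which were large and unequal between the dye orientations, so these values are given as a description and without a test. The arrays have 2 colours each. On every array, RNA of 5 numbered brains of mice homozygous for O377 was set against 1 pool of RNA from 4 wild-type brains. Per the title of the series, O377 is a mutant line with an altered Crybb2, a crystallin gene best known from the eye lens. Mutant RNA carried the dye Cy5 on 7 arrays and Cy3 on 8. Age, sex and strain are not stated in the labels, and neither is the brain behind any array or whether the 5 mutant RNAs were mixed. The spread reported here is therefore that between arrays, which may be technical, and the wild-type pool is a single control. Fewer cells of a type and less RNA per cell cannot be told apart in whole brain.

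Ccl27a encodes a small secreted protein, CCL27, also called CTACK, that guides T cells. It is best known from the skin, where keratinocytes make it in response to TNF and interleukin 1, and it acts through the receptor CCR10. A second ligand, CCL28, shares that receptor. In the mouse the gene lies beside Il11ra1 in a stretch of the genome with copies of the same pair of genes, among them Ccl27b.

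The copies could matter for what the probe measures. RefSeq (GRCm38.p6) gives 3 promoter windows for Ccl27a, each holding 250 bases before a start and 50 after it. The bases before the start were compared, without gaps, with those of other genes that shared an identical stretch of 20 bases with them. Windows of 2 genes were at least 90% identical to the third Ccl27a window over at least 200 bases, those of Ccl27b and of the gene model Gm13306. Each differed from Ccl27a at 2 of 238 bases, an identity of 99.2%. The stretch is shown for Ccl27a (chr4:41770225-41770462, minus strand) and Ccl27b (chr4:42655013-42655250, plus strand), with the differing bases in capitals:
Ccl27a: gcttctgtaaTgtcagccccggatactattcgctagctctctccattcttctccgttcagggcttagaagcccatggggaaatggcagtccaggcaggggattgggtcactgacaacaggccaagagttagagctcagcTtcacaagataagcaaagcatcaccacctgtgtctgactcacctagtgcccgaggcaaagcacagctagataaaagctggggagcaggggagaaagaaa
Ccl27b: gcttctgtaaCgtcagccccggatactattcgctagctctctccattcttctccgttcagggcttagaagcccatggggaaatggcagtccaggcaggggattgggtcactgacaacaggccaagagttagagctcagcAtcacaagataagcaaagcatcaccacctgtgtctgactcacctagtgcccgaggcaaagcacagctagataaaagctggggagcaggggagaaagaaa
The resemblance is one of promoter windows and not of the probe, whose own sequence was not used here. Whether the probe also took up RNA of such copies was not tested, so Ccl27a below means the signal of this probe.

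Each value is a log ratio of the 2 channels of an array, taken as log2. Whether it sets the mutant over the wild type or the red dye Cy5 over the green dye Cy3 is not stated. With the mutant in Cy5, the Ccl27a values were -0.68 on array 1, -0.62 on array 2, -0.88 on array 5, -0.95 on array 6, -0.72 on array 9, -0.77 on array 10 and -0.76 on array 13. All 7 lay well below 0 and close to each other. With the mutant in Cy3, they were 0.03 on array 3, 0.05 on array 4, -0.23 on array 7, 0.39 on array 8, 0.48 on array 11, -0.03 on array 12, 0.53 on array 14 and 0.12 on array 15. These 8 values lay on both sides of 0, with 6 above and 2 below. The 2 orientations did not overlap, since the highest value of the first lay 0.39 below the lowest of the second. Of the 4135 probes with a value on every array, 43 (1.04%) had orientations that did not overlap in either direction.

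**Figure D1:**
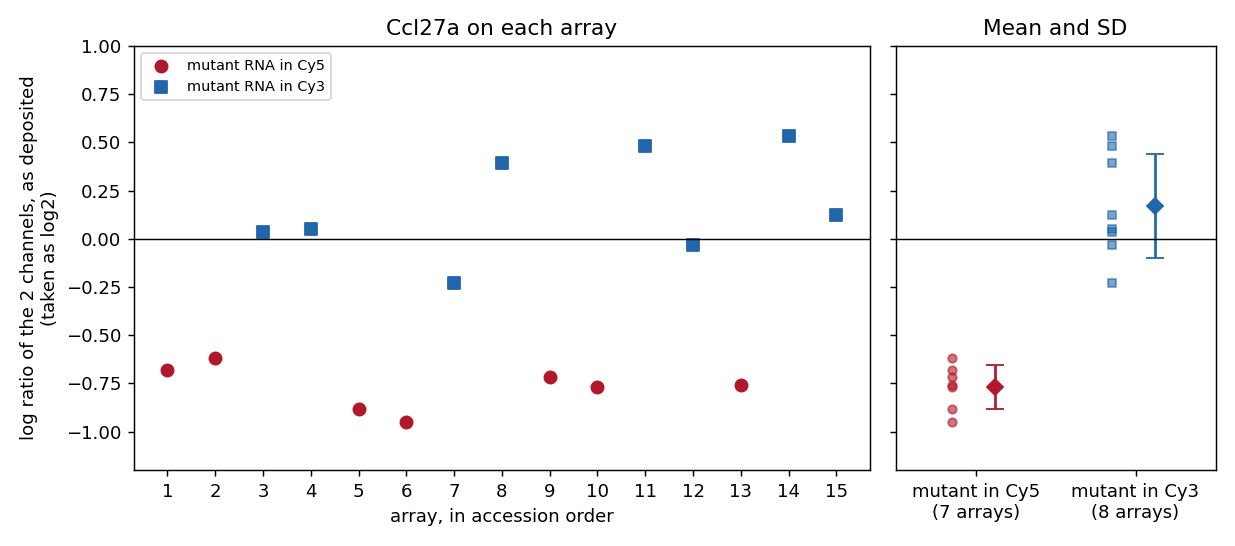
Log ratio of Ccl27a (taken as log2, vertical axis) on each of the 15 arrays in accession order (left), and by orientation with the mean and SD as a diamond and bar (right). The 7 arrays with the mutant in Cy5 sit between -0.95 and -0.62, and the 8 with the mutant in Cy3 between -0.23 and 0.53.

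The means of the orientations were opposite in sign and unequal in size. With mutant RNA in Cy5, Ccl27a averaged -0.77 ± 0.11 (SD, n = 7), and with mutant RNA in Cy3 it averaged 0.17 ± 0.27 (SD, n = 8). The second mean was 0.22 of the first in size, and the sizes differed by 0.60. The medians were -0.76 and 0.09. The mean was thus far from 0 in 1 orientation only, and in the other it was smaller than its own SD. Single arrays of that other orientation still reached 0.39, 0.48 and 0.53 (arrays 8, 11 and 14). A rank on each array, which needs no common scale, gave the same order. Between 5.1% and 13.2% of the measured probes of an array lay below Ccl27a with the mutant in Cy5, and between 23.7% and 92.7% with the mutant in Cy3.

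The values were split into parts that turn with the dyes and parts that do not. The dye-switching component is the mean with the mutant in Cy5 minus that with the mutant in Cy3, divided by 2, and it was -0.47 ± 0.06 (SE, n = 15) for Ccl27a. The shared component is the average of the orientation means, and it was -0.30 ± 0.06 (SE, n = 15). The SEs describe the spread of the values the gene was chosen on, and no test is drawn from them. Over all 8058 tested probes the medians of these components were 0.0073 and -0.0049.

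Both components of Ccl27a were negative, so the side on which it lies in the mutant is the same under either direction of the ratio. If values run Cy5 over Cy3, the genotype difference is the dye-switching component, 1.38-fold lower in the mutant, and the shared component is a dye effect. The mutant would then be 1.70-fold lower by the 7 arrays with mutant RNA in Cy5 and 1.12-fold lower by the 8 others, and 13 of 15 arrays would show it lower, the exceptions being arrays 7 and 12. If values run mutant over wild type, the genotype difference is the shared component, 1.23-fold lower in the mutant, and the larger, dye-switching part is the dye effect. Then 9 of 15 arrays would show it lower. Were the ratios inverted in either case, the side would turn with them. These folds hold only if the logarithm is to base 2.

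**Figure D2:**
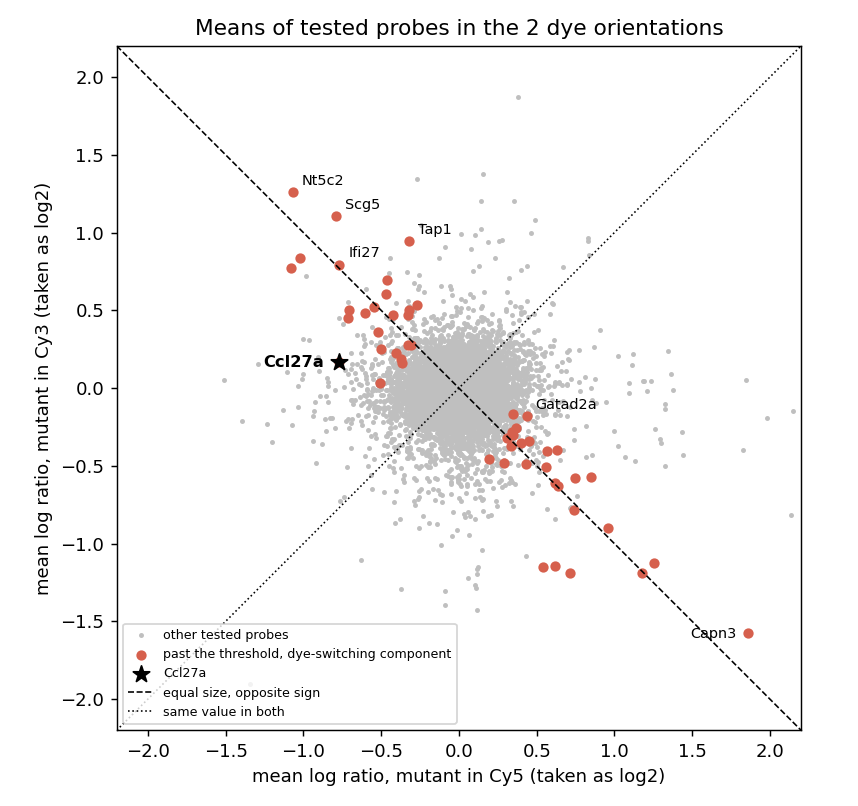
Mean log ratio (taken as log2) of each tested probe with the mutant in Cy5 (horizontal) against that with the mutant in Cy3 (vertical), with the 52 probes past the threshold in the dye-switching component in colour. Most coloured points lie near the dashed line of equal size and opposite sign, while Ccl27a (star) lies off it at -0.77 and 0.17. Of the 8058 tested probes, 2 lie beyond the axes and are not drawn.

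The probes called in the dye-switching component give the setting for that imbalance. In a limma model over the 8058 probes, 52 probes (0.645%) passed a Benjamini-Hochberg adjusted p of 0.05 in this component, 25 of them (0.31%) on the negative side, and 0 (0%) passed in the shared component. At an unadjusted p under 0.05 there were 771 (9.57%) and 765 (9.49%). Without array 11 the negative side held 16 probes. With 1 value per run of 4 arrays in accession order, 2 probes passed and Ccl27a was not among them. Ccl27a is among the 52, which says nothing further because it was chosen for this value. It was 13th of the 25 negative probes by size. Its shared component was 0.64 of its dye-switching component in size, while the median of the 52 was 0.17. Only 1 other of the 52 exceeded 0.5, a probe with no single gene symbol at 0.88. Tap1 lay just under that line at 0.49, followed by Gatad2a at 0.42. In absolute size, the shared component of Ccl27a was 3rd among the 52. Of all tested probes, 443 (5.50%) had a larger one. The ratio and the ranks come from the values the gene was chosen on, which were unequal between orientations. The 52 were themselves called for their dye-switching component, which favours small ratios. These comparisons are therefore descriptions only.

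Among called probes with 1 gene symbol, the 4 with the largest shared component in size were Tap1, Ccl27a, S100a5 and Nedd4l. Tap1, a peptide transporter of antigen presentation, averaged -0.32 ± 0.55 (SD, n = 7) in the first orientation (mutant RNA in Cy5) and 0.95 ± 0.56 (SD, n = 8) in the second. Its imbalance thus ran opposite to that of Ccl27a, with the larger mean in the second orientation. The calcium-binding protein gene S100a5, at 0.62 (n = 6) and -1.15 (n = 6), and the ubiquitin ligase gene Nedd4l, at 0.72 (n = 4) and -1.19 (n = 5), were on the other side of the dye-switching component. The second mean of S100a5 took in a lowest value of -2.75, beside a median of -0.88 in that orientation. Its shared component was not recomputed without that value. Of the 52 probes, 32 had the larger mean in size with the mutant in Cy5, as Ccl27a did, and 20 in the other orientation.

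In the values as deposited, Ccl27a also varied less in 1 orientation than in the other. Its SD was 0.11 over the 7 arrays with the mutant in Cy5 and 0.27 over the 8 others, 2.36 times as large. Over the 4135 probes with a value on every array the median SDs were 0.31 and 0.23, so most probes spread more, not less, with the mutant in Cy5. Of these probes 0.943% had a smaller SD than Ccl27a in the first orientation, 65.9% in the second, and 2.85% a larger ratio of the SDs. Arrays 9 and 10, at -0.72 and -0.77, had the widest interquartile ranges over all probes, 0.731 and 0.892. Array 6, at -0.95, had one of 0.399. Scaling to 1 range brings arrays 9 and 10 nearer to 0 and array 6 further from it. The small spread is thus one of the deposited values, and the SDs were not recomputed after scaling. When every array was scaled to the same interquartile range, the mean with the mutant in Cy5 became -0.65. These shares are descriptions of 1 probe chosen for its values, and the difference in spread was not tested.

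**Figure D3:**
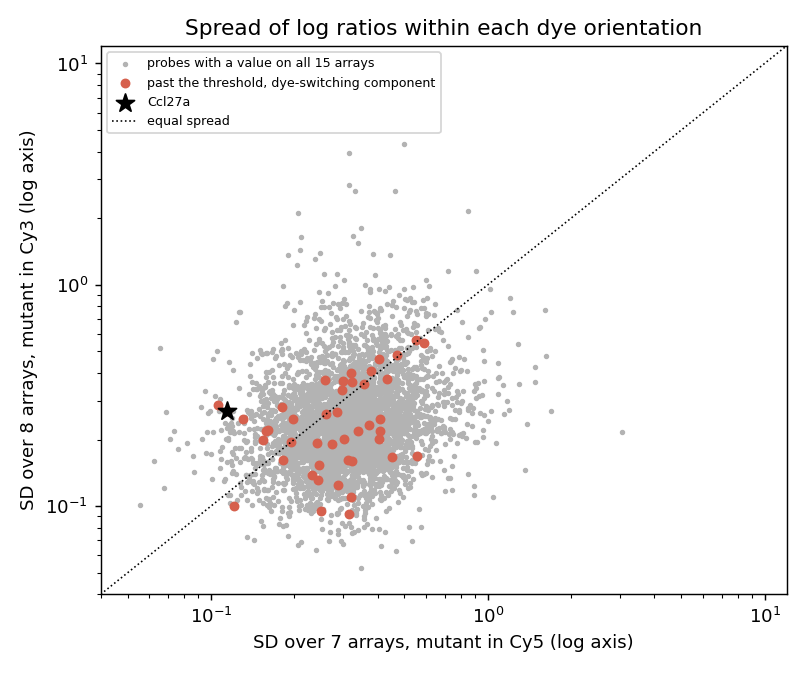
SD of each probe's log ratio over the 7 arrays with the mutant in Cy5 (horizontal, log axis) and the 8 with the mutant in Cy3 (vertical, log axis), for the 4135 probes with a value on all 15 arrays. Ccl27a (star) lies above the line of equal spread, at 0.11 and 0.27.

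Arrays next to each other in accession order and of the same orientation were compared for Ccl27a. Of those with mutant RNA in Cy5, arrays 1 and 2 differed by 0.060, arrays 5 and 6 by 0.068 and arrays 9 and 10 by 0.049. Of those with mutant RNA in Cy3, arrays 3 and 4 differed by 0.018, arrays 7 and 8 by 0.62, arrays 11 and 12 by 0.52 and arrays 14 and 15 by 0.41. The labels do not say what such neighbours share.

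The same 15 values were also split by runs of arrays, as a description of the values the gene was chosen on. In arrays 1 to 4 the dye-switching component of Ccl27a was -0.35 and the shared component -0.30. In arrays 5 to 8 they were -0.50 and -0.42, in arrays 9 to 12 -0.48 and -0.26, and in arrays 13 to 15 -0.54 and -0.22. Leaving out each array in turn moved the dye-switching component between -0.50 and -0.44 and the shared component between -0.33 and -0.27.

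Other genes of the chemokine system were compared in the same fit. Of 64 other ligands and receptors listed, 22 genes had 24 named probes, and 9 probes of 9 genes were tested. None of the 9 passed in limma in the dye-switching component, where 0.645% of all probes did, nor in the shared component. At an unadjusted p under 0.05 there was 1 of 9 in each, beside 9.57% and 9.49% of all probes. Their medians were 0.0191 and -0.0122. Of the other 15 probes, 8 had no value on any array and 7 had values on too few to be tested.

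Ccl28, the other ligand of the CCR10 receptor, lay at 0.20 ± 0.18 (SE) in the dye-switching component, limma adjusted p = 0.779, with values on 13 arrays. Its values with the mutant in Cy5 ran from -0.13 through a median of 0.07 to 2.50, and with the mutant in Cy3 from -0.42 through 0.01 to 0.64. The orientations overlapped throughout, and the mean of the first, 0.48, fell to 0.07 without array 1. The annotation used here names no probe for Ccr10 itself.

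Among chemokines of the brain's own cells, Cx3cl1, the fractalkine that neurons present to microglia, lay at 0.11 ± 0.07 (SE), adjusted p = 0.659 in limma. Its values overlapped between orientations, from -0.21 to 0.49 with the mutant in Cy5 and from -0.44 to 0.31 with the mutant in Cy3. Cxcl12, which guides migrating neurons and blood stem cells, lay at 0.02 in the dye-switching and 0.21 ± 0.08 (SE) in the shared component, adjusted p = 0.459 there in limma. It was positive in both orientations, at 0.23 ± 0.19 (SD, n = 4) and 0.20 ± 0.25 (SD, n = 8), unlike Ccl27a. Cxcl14, a chemokine found in interneurons, lay at 0.02 and -0.04.

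The inflammatory ligands showed no value past the threshold. Ccl5, which draws lymphocytes to inflamed tissue, lay at -0.05 ± 0.11 (SE) in the dye-switching component. Ccl8, which draws monocytes, lay at 0.10 ± 0.10 (SE). Pf4, the platelet factor, lay on the same side as Ccl27a in both components, at -0.29 and -0.30, with SEs of 0.20. Its mean with the mutant in Cy5, -0.59, rested on array 6 at -2.69 and was -0.17 without it.

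Of the receptors, Ccr7 and Ackr1 were tested. Ccr7, the homing receptor for CCL19 and CCL21, lay at 0.20 ± 0.07 (SE), opposite in sign to Ccl27a, limma unadjusted p = 0.0145 and adjusted p = 0.372. With the mutant in Cy5 its values ran from -0.15 through a median of 0.05 to 0.71, and with the mutant in Cy3 from -0.34 through -0.16 to 0.06. The scavenging receptor Ackr1 lay at -0.04 ± 0.05 (SE).

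**Figure D4:**
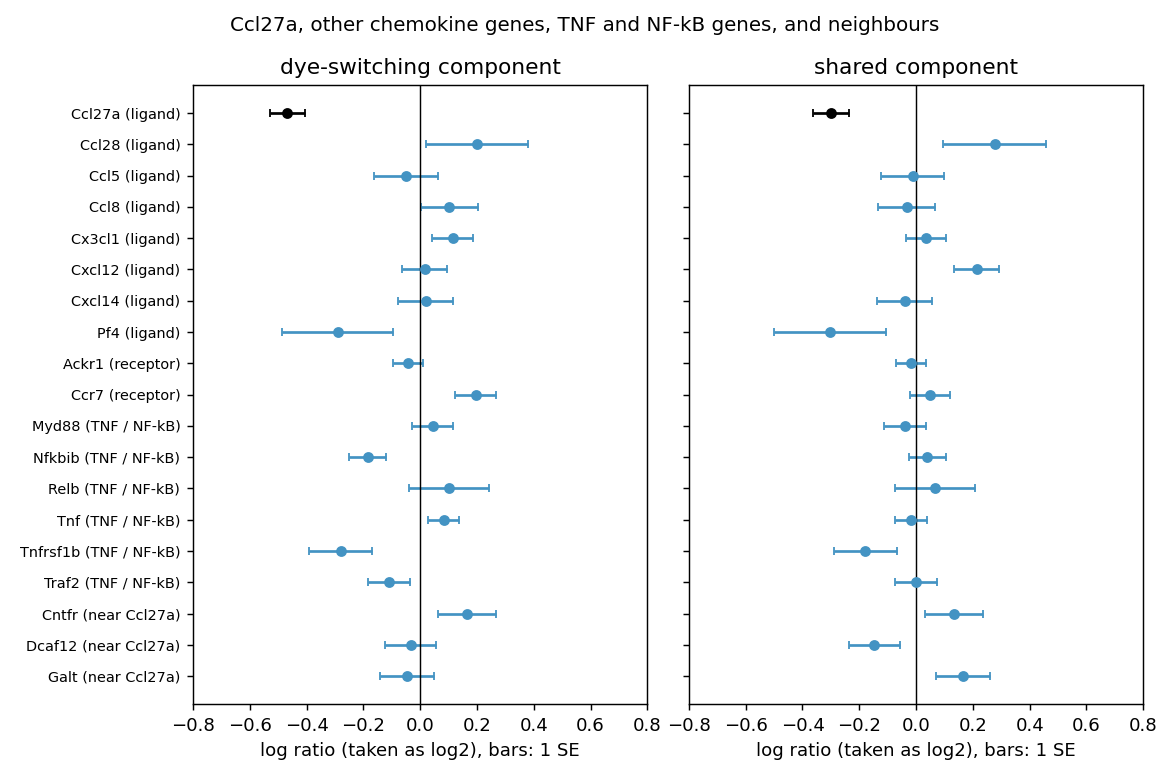
Dye-switching (left) and shared component (right), with bars of 1 SE (log ratio, taken as log2), for Ccl27a, the tested chemokine ligands and receptors, genes of TNF and NF-kB signalling, and genes near Ccl27a. Ccl27a, in black, lies at -0.47 and -0.30, and none of the other genes drawn passed the threshold in limma in either component.

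TNF and interleukin 1 induce CCL27 in skin through the transcription factor NF-kB, and 15 genes of that route were listed. Of these, 6 genes with 1 probe each were tested, and 0 passed the threshold in limma in either component, where 0.645% and 0% of all probes did. In the dye-switching component 2 of 6 had an unadjusted p under 0.05, both negative. Of all probes 9.57% did in either direction, and 381 of 8058 on the negative side. The list median was -0.03. Nfkbib, an inhibitor of NF-kB, lay at -0.18 (unadjusted p = 0.0119, limma adjusted p = 0.349), with 8 of 8 values above 0 with the mutant in Cy3 and 6 of 7 below 0 with the mutant in Cy5. Tnfrsf1b, a TNF receptor, lay at -0.28 (unadjusted p = 0.023, limma adjusted p = 0.424), from -1.48 to 0.18 with the mutant in Cy5 and from -0.11 to 0.29 with the mutant in Cy3. Its median with the mutant in Cy5 was -0.23, and the lowest values were -1.48 on array 2 and -1.01 on array 6. Tnf itself lay at 0.08, limma adjusted p = 0.685.

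Downstream of chemokine receptors, 44 genes of G proteins, kinases and cell movement were listed, and 19 probes of 18 genes were tested. In limma 0 passed in either component, beside 0.645% and 0% of all probes. In the dye-switching component 3 of 19 had an unadjusted p under 0.05, none of them negative, beside 9.57% of all probes. Pxn, the adhesion scaffold paxillin, came closest at 0.34, limma adjusted p = 0.0562, on the side opposite to Ccl27a. The inhibitory G protein gene Gnai2 lay at 0.29, limma adjusted p = 0.44. The list medians were 0.05 and 0.04.

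The genes beside Ccl27a on the chromosome were read for a regional pattern. Of the 20 protein-coding genes nearest to it in the reference order, 10 on each side, 6 had a named probe and 3 were tested, all on the Il11ra1 side. The galactose enzyme gene Galt, 2 genes away, lay at -0.05 ± 0.10 (SE) in the dye-switching component, limma adjusted p = 0.91. The neurotrophic receptor gene Cntfr, 7 genes away, lay at 0.17 ± 0.10 (SE), adjusted p = 0.654 in limma. Dnaic1, a dynein chain of cilia 9 genes away, lay at 0.01. In the shared component these 3 genes lay at 0.16, 0.13 and -0.05. Dcaf12, a ubiquitin ligase adaptor gene of the fixed list for the region, lay at -0.03 and -0.15. None passed the threshold. Il11ra2, next to Ccl27b in the reference, had a value on 1 array and Ccl21a on 3, so the duplicated stretch itself gave no further test.

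Markers of the tissue and of cells that make or follow CCL27 were also read, as counts of probes with enough values to be tested. Over all tested probes, 0.645% passed in the dye-switching component, to which the counts here refer. The arrays measured 9 of 17 probes of neuronal markers and 7 of 11 of astrocyte markers. Of 10 keratinocyte probes 4 were tested (Krt1, Krt5, Krt10 and Krt15), 0 past the threshold, with dye-switching components from -0.06 to 0.18. Of 13 lymphocyte probes 2 were tested, Cd3d at 0.12 and Cd79a at -0.02, and none passed. Cd4 had a value on 1 array, 1 of 3 Cd8a probes had a value on 1 array and the others on none, and a Krt14 probe had values on 2. Microglial and macrophage markers, 4 probes, lay between -0.05 and 0.08, those of meninges and choroid plexus between -0.09 and 0.12, and those of endothelium between -0.14 and 0.04. Among neuronal markers 1 of 9 probes passed, that of Thy1 at -0.53 (limma adjusted p = 0.0276), with a list median of 0.05. Among astrocyte and oligodendrocyte markers none passed. A log ratio gives no level of RNA, so these values do not show which cells made Ccl27a.

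The genes whose array values were most like those of Ccl27a were sought among 4190 probes with 1 symbol and at least 12 arrays in common. The measure was Pearson's r over arrays, given as a description, and it is largely set by the dye orientation that all probes share. The central 95% of probes lay between -0.59 and 0.66. The 5 highest were Scg5 (r = 0.91), Ifi27 (0.89), Nt5c2 (0.88), Pigf (0.88) and Babam2 (0.86), each over 15 arrays. The 3 lowest were Gatad2a (r = -0.94 over 13 arrays), Capn3 (-0.91 over 15) and Serpina12 (-0.86 over 14). All 8 were past the threshold in the dye-switching component.

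These genes differed from Ccl27a in their balance. Scg5, a chaperone of prohormone processing, averaged -0.79 ± 0.38 (SD, n = 7) and 1.10 ± 0.41 (SD, n = 8). The interferon-induced gene Ifi27 averaged -0.77 ± 0.20 and 0.79 ± 0.25, so its first mean equalled that of Ccl27a to 2 decimals while its second was much larger. The nucleotidase gene Nt5c2 averaged -1.07 and 1.26. Gatad2a, of a chromatin remodelling complex, averaged 0.44 ± 0.15 (SD, n = 6) and -0.18 ± 0.13 (SD, n = 7), and was the gene among these 8 with the proportions nearest to those of Ccl27a, with the sign turned.

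When the mean of each orientation was subtracted first, other genes came out as most like Ccl27a. Rlim, a ubiquitin ligase, had r = 0.85 over 15 arrays, the phosphatase gene Ctdspl r = 0.80 over 15 and Mllt11 r = 0.79 over 13, with the central 95% of probes between -0.53 and 0.57. None of these 3 passed in the dye-switching component in limma. Rlim shared the unequal spread of Ccl27a, with SDs of 0.10 and 0.27, but averaged -0.20 and -0.17, on 1 side in both orientations.

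**Figure D5:**
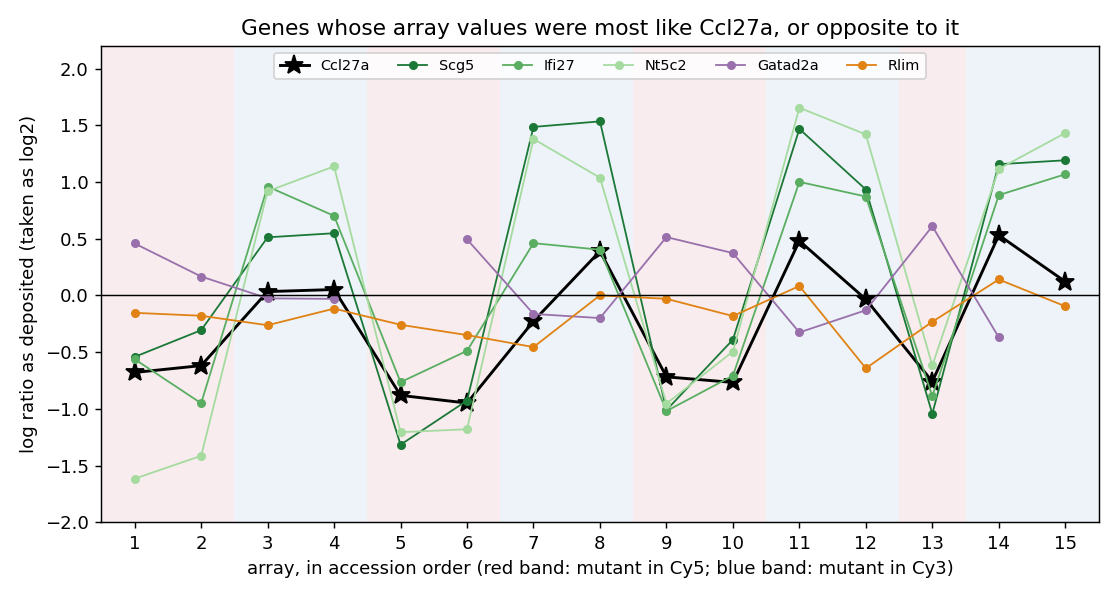
Log ratio (taken as log2) on each array in accession order for Ccl27a, 3 genes with the highest r (Scg5, Ifi27, Nt5c2), the gene with the lowest (Gatad2a, no value on arrays 5 and 15) and the gene most like it within orientations (Rlim). Scg5, Ifi27 and Nt5c2 swing to both sides of 0 with the dyes, while Ccl27a swings far below 0 and only up to 0.53 above it.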

How the data were processed

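The deposited table holds the authors' log ratios, 1 for each probe on each array, read here as log2 because the largest value exceeds the natural logarithm of the largest ratio that 16-bit intensities allow. Neither the base nor the direction of the ratio, nor normalization and filters, are given in the sources used here. The columns were already centred near 0, and 7843 to 10515 of 20205 probes had a value on an array. Intensities were not used, so the number of arrays limits the precision.

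The values were fitted as deposited in R 4.3.3 (limma 3.58.1), the model holding the dye orientation as a term, over the 8058 probes with at least 4 arrays of each orientation. P-values were adjusted by Benjamini-Hochberg over all of them with a threshold of 0.05. The fit was tested on simulated data with independent arrays, whereas the arrays here share 1 wild-type pool. Of the probes, 11723 had 1 gene symbol in the platform annotation, 806 several and 7676 none. Identifiers matched RefSeq for 11590 probes by gene number and for 131 by symbol, and 2 symbols were kept.

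Genes were named by rule: Ccl27a, tested chemokine ligands and receptors, tested genes beside Ccl27a, the 5 highest and 3 lowest by r with Ccl27a, the 3 highest within orientations, the 4 called genes with the largest shared component, and members of other lists past the threshold. Other genes of the TNF, signalling and marker lists were named after their values were seen. Ccl27a and all lists were chosen with earlier results of these data known. Alternatives were another scaling, centring, filter, regression, weighting, limit on values and treatment of runs, and leaving out arrays.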

Additional observations from a re-analysis of the deposited data

Results flagged for a closer look

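For 31 genes or probes, not all of those named above, sets of array values were checked for an array far from the others of its set. Of 66 sets checked, 6 had one, where chance gives about 1 in 20 if values are normally distributed. The sets share arrays, and some genes were chosen for their values, so no excess is read from this count. Neither orientation of Ccl27a was among the 6. Among chemokines, Pf4 was at -2.69 on array 6, with the next value at -0.39, and Ccl28 was at 2.50 on array 1, with the next at 0.36. Among genes near Ccl27a, Dcaf12 was at -1.05 on array 10, with the next at -0.20, and its mean of -0.18 with the mutant in Cy5 became -0.04 without that array. Cntfr was at 0.61 on array 4, with the next at 0.03, and its mean of -0.03 with the mutant in Cy3 became -0.12. Relb, a subunit of NF-kB, was at 1.76 on array 5, with the next at 0.21. Capn3, a calcium-dependent protease gene, was at 0.89 on array 10, with the next at 1.77, and its mean of 1.86 with the mutant in Cy5 became 2.02.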

How the results depend on the processing

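Both components of Ccl27a stayed negative in every alternative run, the dye-switching component between -0.50 and -0.40 and the shared one between -0.34 and -0.25. The mean with the mutant in Cy5 was -0.65 with arrays scaled to 1 interquartile range, and -0.79 to -0.74 with each array left out. The mean with the mutant in Cy3 was 0.12 to 0.23 with each array left out. Robust regression raised the probes past the threshold from 52 to 204 in the dye-switching component (95 positive, 109 negative) and from 0 to 107 in the shared one. With 1 value per run of 4 arrays 2 of 7824 probes passed, where fewer values entered the fit. Leaving out each array gave 36 to 49. Of the other chemokine probes, 0 passed in the dye-switching component in each alternative fitted, and the shared component was not counted for them. Without array 5, chosen after seeing the data, the mean of Relb with the mutant in Cy5 turned from 0.17 to -0.098. Treating each run as a random block gave 53. No paired analysis was possible because the labels give the orientations no replicate numbers in common, and the runs follow accession order, not a labelled pairing.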
